A study of Mus musculus with 2 samples.

Results

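RNA immunoprecipitation sequencing (RIP-seq) of FMRP in adult mouse testis was examined for the genes of meiotic recombination, DNA repair and germ granules. FMRP is the RNA-binding protein encoded by *Fmr1*. The genes were taken by their symbols, with patterns for synaptonemal complex, mismatch repair, BRCA, Fanconi, RAD, checkpoint kinase, helicase, topoisomerase, XRCC, ERCC, PARP, Tudor domain and PIWI names, and the patterns themselves use no measured value. They numbered 47 of the 4788 genes in the deposited table. All 4788 are protein-coding genes that the authors had called higher in the FMRP RIP, so the direction of every member was fixed by that call, and only its size is described here. The input group was 1 library of RNA set aside from testis lysate of wild type adult males, and the FMRP RIP group was 1 library of RNA that came down with an anti-FMRP antibody from such lysate. No genetic change separated the groups, and how many animals were pooled is not given in the sources used here. With 1 library per group there was no replicate check and no test between the groups, and no IgG library was analysed here. The RNA came from whole testis, so the number of cells of a type and the amount of RNA per cell cannot be told apart in any value below.

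In meiotic prophase, spermatocytes cut their own DNA and mend the breaks on the homologous chromosome while the synaptonemal complex holds the homologs together. Strand exchange proteins carry the broken end into the homolog, mismatch repair relatives and crossover factors turn some of these joints into crossovers, and checkpoint kinases halt cells whose breaks persist. The same enzymes mend accidental damage in somatic cells. Germ granules, such as the chromatoid body of round spermatids, are cytoplasmic bodies of RNA and protein built on Tudor domain scaffolds, and PIWI proteins use small RNAs in them to silence transposons. FMRP binds mRNA within coding regions, associates with polyribosomes and is known mainly as a repressor of translation.

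Values are in CPM, the usual count scale for reads on a gene relative to all reads of its library, without correction for transcript length, so levels are compared between libraries and not between genes. The steps between the values put the totals at 30849870 reads for the input and 36506932 reads for the FMRP RIP. A ratio is FMRP RIP CPM over input CPM, and its 95% interval is an exact Clopper-Pearson one, computed after rounding to whole reads. Molecular identifiers are not described in the sources used here, and the intervals cover counting error only. Log2 ratios carry a pseudocount of 1 CPM in either library, which understates the change of low genes. Every member lay above the floor of 3 reads in the input, with *Parp14* lowest at 25 reads. Among markers of testis cells, the listed genes held 1 of 10 for spermatogonia, 2 of 12 for spermatocytes, 3 of 14 for spermatids and 1 of 4 for endothelium. They held 0 of 9 for Sertoli cells, 0 of 7 for Leydig cells, and 0 of 4 each for peritubular myoid cells and macrophages, where 21.3% of all protein-coding reference genes were listed. As genes not called higher were not analysed here, an unlisted marker says nothing of its level.

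The reference annotation (RefSeq, GRCm38.p6) holds 109 protein-coding genes whose symbols fit these patterns, and 47 of them were listed (43.1%). Among the reference protein-coding genes as a whole, silent ones included, 21.3% were listed. The patterns were chosen with earlier results of these data known, so the gap between these shares is a description and was not tested. The share listed varied between the roles, which were set by hand and hold only 4 to 16 genes each. Whether the roles differ in this share was not tested. Helicases and topoisomerases had 6 of 8 genes listed, meiotic entry and break formation 3 of 4, crossover and mismatch repair 7 of 12, break sensing and checkpoint 6 of 11, and excision repair and end joining 6 of 12. The PARP family had 5 of 12, the germ granule and Tudor genes 4 of 13, the synaptonemal complex and axis 3 of 10, the Fanconi anemia genes 3 of 11, and strand exchange 4 of 16. Some well-known members of these pathways were not among the listed genes. None of *Piwil1*, *Piwil2* and *Piwil4*, the PIWI proteins of the mouse, was listed. Nor was either of *Hormad1* and *Hormad2*, which mark unsynapsed axes. *Sycp3*, *Mael*, *Mov10l1*, *Msh4* and *Msh5* were also not listed, and their values were not analysed here.

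**Figure D1:**
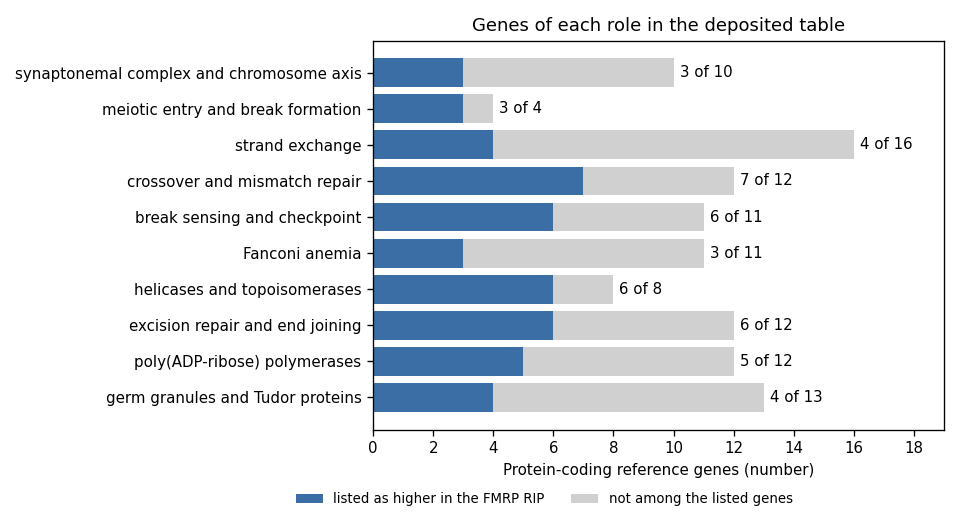
Number of protein-coding reference genes in each role (x axis, bar length), divided into genes listed as higher in the FMRP RIP (blue) and genes not among the listed ones (gray). Helicases and topoisomerases reached 6 of 8, strand exchange 4 of 16, germ granules and Tudor proteins 4 of 13, and all roles together 47 of 109.

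By size, the middle of the members lay close to that of all listed genes. Their median log2 ratio was 1.42, with quartiles of 1.05 and 1.91, beside a median of 1.35 and quartiles of 0.92 and 2.001 over all listed genes. A log2 ratio above 1 was found for 38 of the 47 members (80.9%) and for 70.1% of all listed genes. With the pseudocount, at least a 1.5-fold higher value was found for all 47 members and for 97.3% of all listed genes. The authors' call already required a fold of at least 1.5, so apart from the pseudocount this count was fixed in advance. The small lead of the members in the median turned around with a smaller pseudocount and with none. Without one, their median log2 ratio was 1.51, and that of the 4775 listed genes above 0 in the input was 1.61. A log2 ratio above 1 was then found for 40 of 47 members and 81.2% of those 4775 genes. The members were also no more frequent at the top of the table, where 5 of 47 lay within the highest 10% of the listed genes and 3 within the lowest 10%. Together they made up 0.145% of reads in the input and 0.502% after RIP, a ratio of 3.46, beside 3.89 for all listed genes. *Tdrd6* alone supplied 352 CPM of the 1453 CPM in the input and 1166 CPM of the 5024 CPM in the FMRP RIP. Without it the ratio of the sums was 3.50.

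**Figure D2:**
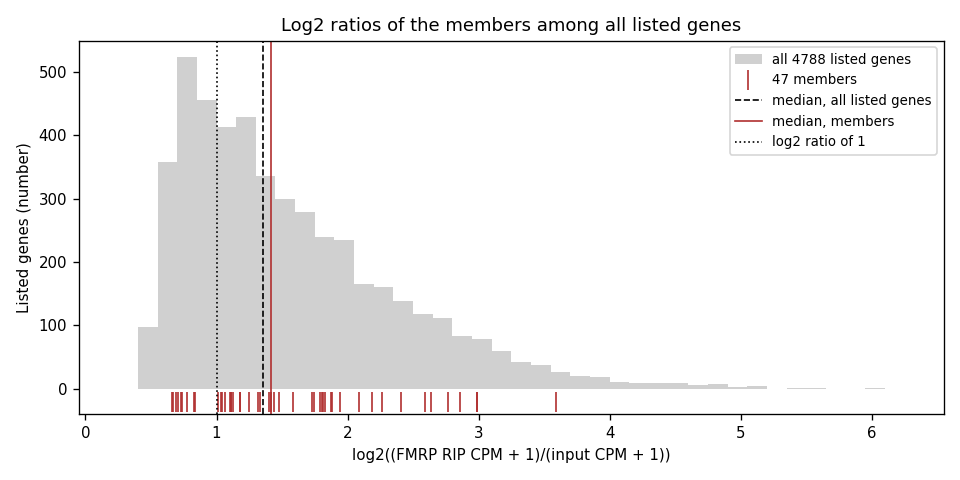
Log2 ratio of FMRP RIP over input with a pseudocount of 1 CPM (x axis) for all 4788 listed genes (gray histogram, y axis in genes) and for the 47 members (red ticks under it). The median of the members (red line, 1.42) lay beside that of all listed genes (dashed line, 1.35), and the members ran from 0.66 to 3.59.

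The synaptonemal complex gave the member with the highest ratio and, beside it, one of the lower ones. *Sycp2* (ENSMUSG00000060445, chromosome 2 from 178345293 to 178407685 on the minus strand of GRCm38 in the deposited table), which encodes a lateral element protein that shapes the chromosome axis, had 8.88 CPM in input RNA and 118 CPM after RIP. Its ratio of 13.3 (95% interval 11.8 to 15.1) gave it rank 125 of the 4788 listed genes by log2 ratio. *Syce1* encodes a central element protein, and it had 33.6 CPM and 119.98 CPM, a ratio of 3.57 (3.34 to 3.83). *Sycp1*, the gene of the transverse filament that spans the gap between homologs, had 10.5 CPM and 23.8 CPM, a ratio of 2.28 (2.001 to 2.59) at rank 3054. The 3 intervals did not overlap, although the proteins belong to 1 structure.

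Of the genes for meiotic entry and break formation, *Meioc* stood high and the others near the bottom of the table. *Meioc* (ENSMUSG00000051455, chromosome 11 from 102663716 to 102682237 on the plus strand), whose cytoplasmic protein germ cells need to hold the meiotic prophase program, had 11.3 CPM in input RNA and 96.9 CPM after RIP. Its ratio was 8.54 (7.65 to 9.56), at rank 323. *Mei1*, needed for the formation of meiotic breaks, had 4.86 CPM and 8.27 CPM, a ratio of 1.70 (1.39 to 2.08). *Zcwpw1* encodes a reader of the histone marks that PRDM9 leaves at break sites. It had 5.38 CPM and 9.15 CPM, a ratio of 1.70 (1.41 to 2.06), and with *Mei1* it had the lowest log2 ratios of all members, 0.67 and 0.66.

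Among the strand exchange genes, *Brca2* was set apart from the other 3. *Brca2* (ENSMUSG00000041147, chromosome 5 from 150522630 to 150570329), which encodes the protein that loads the recombinases onto single-stranded DNA, had 11.96 CPM in input RNA and 102 CPM after RIP, a ratio of 8.51 (7.65 to 9.50). *Brca1*, which acts earlier in the same pathway, had 3.53 CPM and 8.71 CPM, a ratio of 2.47 (1.98 to 3.09). *Rad54b* encodes a motor protein that helps strand invasion, and it had 4.51 CPM and 8.01 CPM, a ratio of 1.78 (1.45 to 2.19). *Xrcc3*, a gene of homologous recombination, had 1.69 CPM and 3.34 CPM, and its 52 input reads left a wide interval around the ratio of 1.98 (1.42 to 2.80). The intervals of *Brca1*, *Rad54b* and *Xrcc3* overlapped each other and lay below that of *Brca2*. In *Brca2*, *Rad54b* and *Xrcc3* the reads were not whole numbers, so part of their reads may be divided with other genes. *Rad54b* shares 8141 bases of its span with *Fsbp*, and *Xrcc3* shares 4653 bases with *Klc1*.

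The crossover and mismatch repair genes ran from among the highest to among the lowest ratios. *Slx4* (ENSMUSG00000039738, chromosome 16 from 3979105 to 4003770), the scaffold of the nucleases that cut joined DNA, had 53.7 CPM in input RNA and 396 CPM after RIP, a ratio of 7.38 (7.01 to 7.77) at rank 395. *Slx4ip*, whose protein binds SLX4, had 6.45 CPM and 11.4 CPM, a ratio of 1.77 (1.49 to 2.10). *Hfm1*, a helicase gene of crossover formation, had 10.5 CPM and 43.3 CPM, a ratio of 4.12 (3.65 to 4.66). *Exo1*, which encodes an exonuclease that resects breaks and serves mismatch repair, was close to it with 7.16 CPM and 27.9 CPM, a ratio of 3.90 (3.37 to 4.53). *Mlh3*, which encodes an endonuclease subunit that resolves crossovers, had 14.5 CPM and 40.05 CPM, a ratio of 2.76 (2.48 to 3.07). *Msh3*, a sensor of small loops in mispaired DNA, followed with 11.8 CPM and 30.8 CPM, a ratio of 2.61 (2.32 to 2.95). *Shoc1*, a gene of crossover designation, had 3.89 CPM and 8.85 CPM, a ratio of 2.27 (1.84 to 2.83). Between *Slx4* and *Hfm1* the intervals were apart, whereas those of *Hfm1* and *Exo1* overlapped, as did those of *Mlh3*, *Msh3* and *Shoc1*.

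The genes of break sensing and the checkpoint were led by *Rif1*. All 6 listed ones had a log2 ratio above 1, as did 70.1% of all listed genes, so with 6 genes the count sets the role little apart. *Rif1* (ENSMUSG00000036202, chromosome 2 from 52072832 to 52122383), whose protein protects broken ends from resection, had 24.96 CPM in input RNA and 156 CPM after RIP, a ratio of 6.23 (5.78 to 6.73). *Mdc1*, the adaptor that spreads the damage signal along chromatin, had 92.7 CPM and 397 CPM, a ratio of 4.28 (4.12 to 4.46). *Rad50*, a part of the complex that senses broken ends, had 2.17 CPM and 10.7 CPM, and its 67 input reads allowed a ratio between 3.80 and 6.49 around 4.93. The checkpoint kinases came next. *Atr* (ENSMUSG00000032409, chromosome 9 from 95857597 to 95951781), the kinase of resected DNA and of the silenced sex chromosomes, had 161 CPM and 543 CPM, a ratio of 3.37 (3.27 to 3.48). *Atm*, the kinase of fresh breaks, had 4.83 CPM and 14.8 CPM, a ratio of 3.07 (2.55 to 3.70). *Rad17*, which loads the checkpoint clamp, was the lowest with 14.7 CPM and 31.9 CPM, a ratio of 2.16 (1.94 to 2.42).

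The Fanconi anemia genes, known for the repair of DNA crosslinks, were led by *Fancm*. *Fancm* (ENSMUSG00000055884, chromosome 12 from 65075603 to 65132058), a translocase gene that also limits crossovers, had 3.57 CPM in input RNA and 23.2 CPM after RIP, a ratio of 6.499 (5.32 to 8.001). *Fancd2*, whose protein is ubiquitinated at crosslinks, had 32.7 CPM and 67.9 CPM, a ratio of 2.08 (1.93 to 2.24). *Fancd2os*, a gene on the opposite strand that overlaps *Fancd2* by 257 or 260 bases depending on the annotation, had 4.12 CPM and 12.7 CPM, a ratio of 3.08 (2.53 to 3.78). Whether the counting used strand is not given in the sources used here, so the reads of *Fancd2* and *Fancd2os* in the shared stretch cannot be told apart.

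The helicases and topoisomerases were led by *Rad54l2* and *Blm*. All 6 listed genes had a log2 ratio above 1, again beside 70.1% of all listed genes. *Rad54l2* (ENSMUSG00000040661, chromosome 9 from 106688082 to 106789194), which shares the RAD54 name but is known as a cofactor of the androgen receptor, had 12.6 CPM in input RNA and 83.6 CPM after RIP, a ratio of 6.65 (5.98 to 7.41). *Blm* and *Wrn* encode RecQ helicases that unwind recombination intermediates. *Blm* had 7.55 CPM and 37.9 CPM, a ratio of 5.02 (4.36 to 5.79), and *Wrn* had 12.6 CPM and 46.6 CPM, a ratio of 3.71 (3.32 to 4.15). Topoisomerases pass DNA strands through each other. *Top2a*, the form of dividing cells, had 36.4 CPM and 136 CPM, a ratio of 3.73 (3.50 to 3.98). *Top2b*, the form also found in resting cells, had 3.82 CPM and 10.5 CPM, a ratio of 2.74 (2.22 to 3.39). Its span shares 4624 bases with that of *Rarb*. *Top3b*, which encodes a topoisomerase that also acts on RNA, had 44.3 CPM and 113 CPM, a ratio of 2.55 (2.40 to 2.71). Of these 6 genes, *Top2b* and *Top3b* were the lowest and their intervals overlapped.

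**Figure D3:**
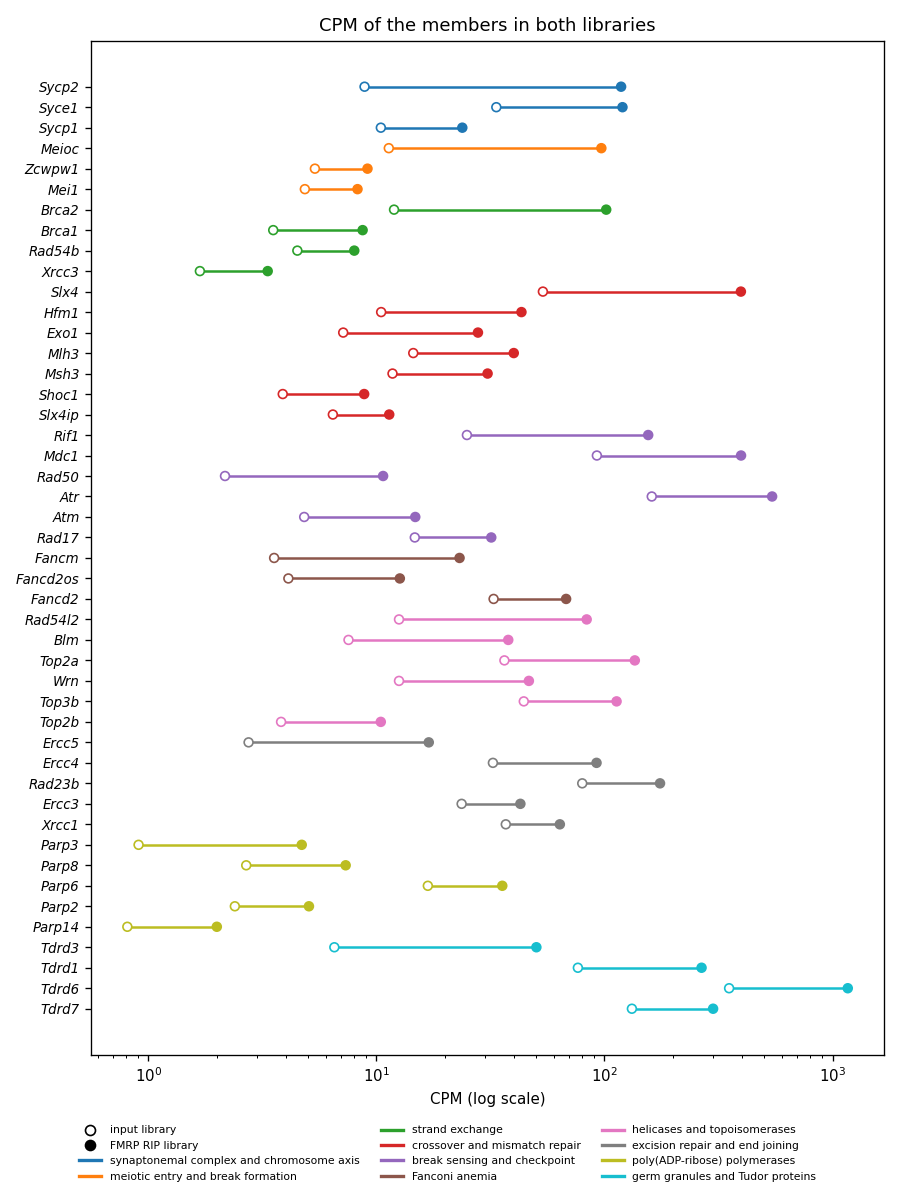
CPM of 46 of the 47 members in the input library (open circles) and in the FMRP RIP library (filled circles) on a log scale, colored by role, with 1 library per group and so no error bars. Within each role the genes are ordered by log2 ratio, and *Sycp2* has the longest line, from 8.88 CPM to 118 CPM.

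Of the 6 listed genes of excision repair, 5 had a ratio below 3.05, the median of the listed genes above 0 in the input. The other was *Ercc5*, the gene of an endonuclease that cuts beside ultraviolet damage, with 2.76 CPM in input RNA and 17.0 CPM after RIP, a ratio of 6.16 (4.91 to 7.83) from 85 input reads. *Ercc4*, which encodes the nuclease for the other side of the lesion, had 32.4 CPM and 92.3 CPM, a ratio of 2.85 (2.65 to 3.06). *Rad23b*, which encodes a partner of the damage sensor XPC, had 79.9 CPM and 175 CPM, a ratio of 2.19 (2.09 to 2.30). *Ercc3*, a helicase gene of the transcription factor TFIIH, had 23.7 CPM and 42.8 CPM, a ratio of 1.81 (1.66 to 1.98). *Xrcc1*, the scaffold of single-strand break repair, had 37.0 CPM and 63.8 CPM, a ratio of 1.73 (1.61 to 1.85). The end joining genes *Xrcc4*, *Xrcc5* and *Xrcc6* were not among the listed genes.

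The PARP genes, which attach ADP-ribose to proteins, had between 25 and 83 input reads in 4 of the 5 members, with wide intervals, and 519 in *Parp6*. *Parp3*, an enzyme gene of break repair, had 0.91 CPM in input RNA and 4.71 CPM after RIP, and its 28 input reads gave a ratio of 5.19 with an interval from 3.47 to 8.04. *Parp2*, whose protein is activated by DNA breaks, had 2.40 CPM and 5.07 CPM, a ratio of 2.11 (1.60 to 2.80). The other 3 were *Parp8*, *Parp6* and *Parp14*. *Parp8* had 2.69 CPM and 7.34 CPM, a ratio of 2.73 (2.13 to 3.53). *Parp6* had 16.8 CPM and 35.7 CPM, a ratio of 2.12 (1.91 to 2.35). *Parp14* had 0.81 CPM and 1.9996 CPM, a ratio of 2.47 (1.55 to 4.06) from 25 input reads. The interval of *Parp3* lay above those of *Parp2* and *Parp6*, while that of *Parp14* overlapped those of the other 4. *Parp1*, the main enzyme of the family, was not among the listed genes.

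The germ granule role was represented by Tudor domain genes only. *Tdrd6* (ENSMUSG00000040140, chromosome 17 from 43615335 to 43630299), a scaffold of the chromatoid body, took the most reads of all members, with 352 CPM in input RNA and 1166 CPM after RIP, a ratio of 3.31 (3.24 to 3.38). *Tdrd1*, which binds PIWI proteins in the granules of spermatocytes, had 76.5 CPM and 267 CPM, a ratio of 3.48 (3.33 to 3.65). *Tdrd7*, a gene of chromatoid body assembly, had 132 CPM and 299 CPM, a ratio of 2.27 (2.19 to 2.35). *Tdrd3* (ENSMUSG00000022019, chromosome 14 from 87416639 to 87545504) had the highest ratio of the 4 Tudor genes, 7.68 (6.64 to 8.93), from 6.55 CPM and 50.3 CPM. Its protein is not a germ granule scaffold but the partner of the topoisomerase TOP3B, and TDRD3 and TOP3B are known to associate with FMRP. Both partner transcripts were listed, at rank 455 for *Tdrd3* and rank 2447 for *Top3b*. Of the other Tudor genes, *Tdrd5*, *Tdrd9* and *Tdrd12* were not among the listed genes.

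**Figure D4:**
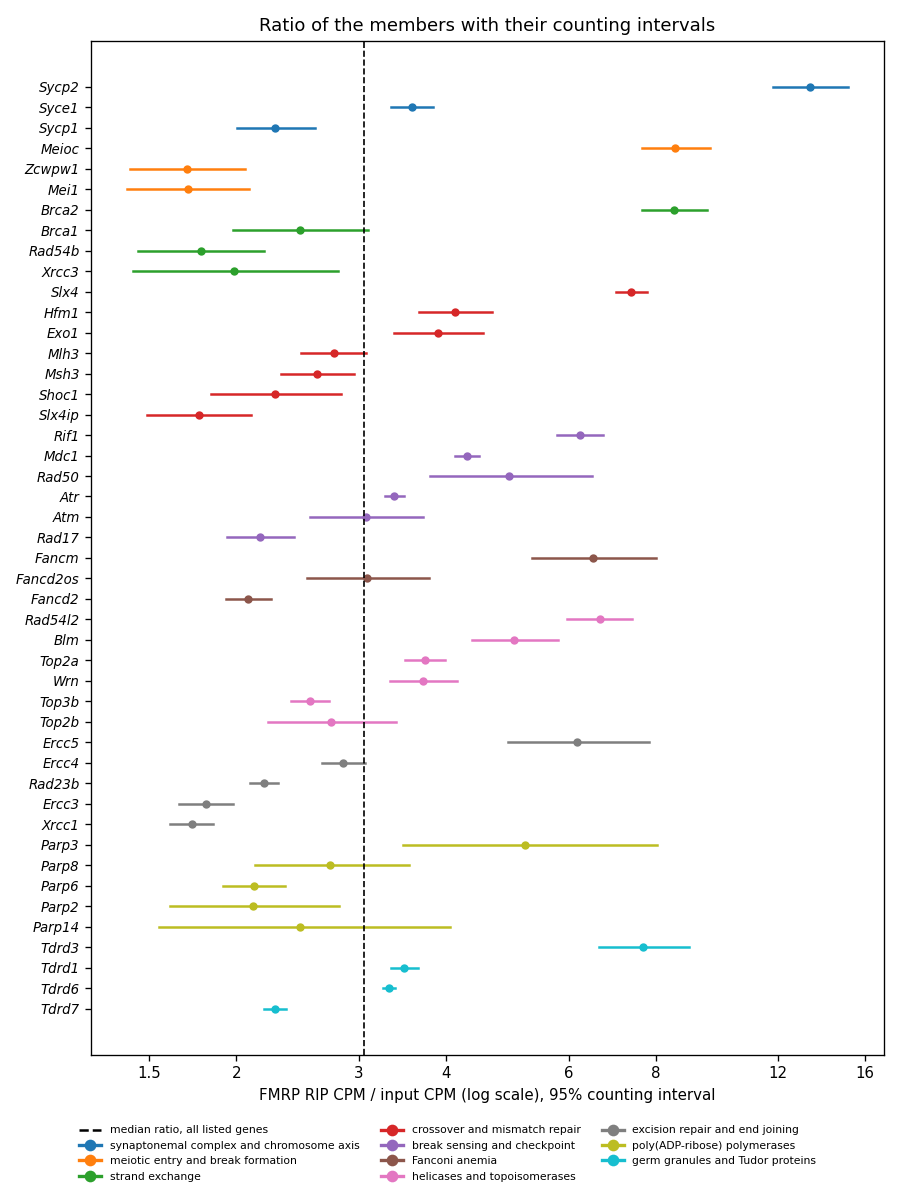
Ratio of FMRP RIP CPM to input CPM (points, log scale) with its exact 95% counting interval (lines) for 46 of the 47 members, colored and ordered by role, beside the median ratio of the listed genes above 0 in the input (dashed line, 3.05). *Sycp2*, *Meioc*, *Brca2*, *Slx4* and *Tdrd3* lie clear to the right of that line, and *Mei1*, *Zcwpw1*, *Slx4ip*, *Rad54b*, *Ercc3* and *Xrcc1* clear to its left.

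Related members were then set against each other in 16 pairs of shared complex, activity or name, picked with their values known. The ratio of one gene was divided by that of the other, so the library totals cancel, and an exact conditional 95% interval was taken from the reads, again for counting error only. In 14 pairs the interval left out 1, a count that the choice of pairs largely fixed. The largest quotient was that of *Sycp2* over *Sycp1*, 5.85 (4.89 to 7.01), followed by *Slx4* over *Slx4ip* with 4.18 (3.48 to 4.99). *Sycp2* over *Syce1* gave 3.73 (3.24 to 4.30), and *Brca2* over *Brca1* gave 3.45 (2.68 to 4.42). *Fancm* had 3.13 times the ratio of *Fancd2* (2.52 to 3.90), and *Tdrd3* had 3.01 times that of *Top3b* (2.57 to 3.54). No other pairs were computed for comparison. Smaller quotients were found for *Ercc5* over *Ercc4*, 2.17 (1.70 to 2.78), and for *Hfm1* over *Shoc1*, 1.81 (1.41 to 2.32). The topoisomerases *Top2a* and *Top2b* differed by 1.36 (1.09 to 1.70), and the helicases *Blm* and *Wrn* by 1.35 (1.13 to 1.62). The Tudor genes *Tdrd1* and *Tdrd6* were nearly level at 1.05 (1.0008 to 1.11), and both lay above *Tdrd7*, by 1.54 (1.45 to 1.63) and 1.46 (1.40 to 1.52). In 2 pairs no difference was detectable at this depth. The quotient was 1.10 (0.91 to 1.32) for *Atr* over *Atm* and 0.82 (0.61 to 1.09) for *Xrcc1* over *Parp2*.

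**Figure D5:**
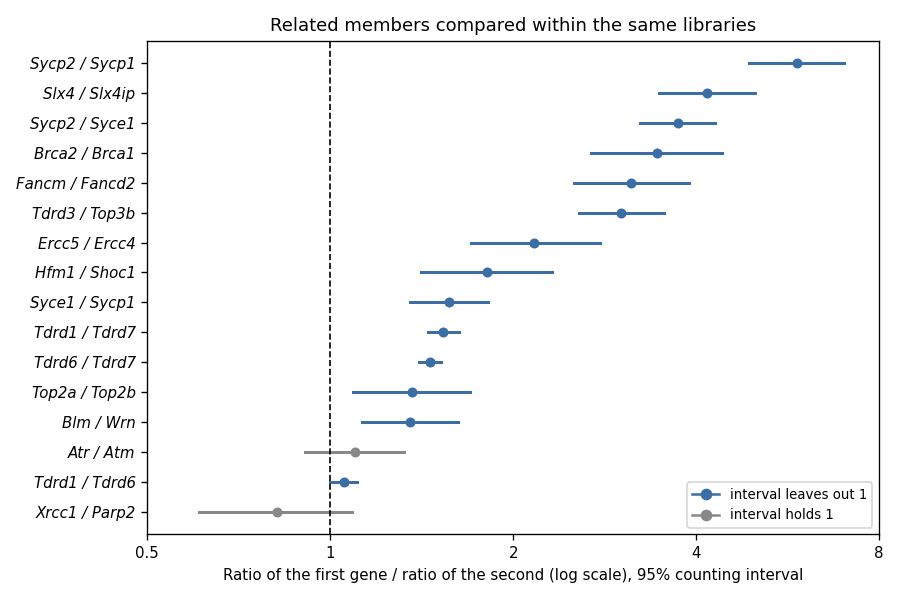
Quotient of the ratios of 2 related members (points, log scale) with its exact conditional 95% counting interval (lines) for 16 pairs, ordered by size. *Sycp2* over *Sycp1* is the largest at 5.85, and the intervals of *Atr* over *Atm* and *Xrcc1* over *Parp2* (gray) hold 1.

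Beyond their symbols, the listed members were compared by gene span, input level and chromosome. Among the 109 genes of these families in the reference, the 47 listed ones had a median span from gene start to gene end of 43.8 kb and the 62 others one of 33.1 kb. The share listed was 9 of 28 genes under 20 kb (32.1%), 12 of 30 from 20 to under 40 kb (40%), 14 of 28 from 40 to under 80 kb (50%), and 12 of 23 at 80 kb or more (52.2%). For the protein-coding reference as a whole, silent genes included, the same shares were 8.25%, 25.9%, 38.7% and 49.1%. The families thus stood above that reference in each range, most under 20 kb and least at 80 kb or more. With 23 to 30 family genes per range, these gaps were not tested. Shares among expressed genes only were not analysed here. The span is not the length of the transcript, which was not analysed here. Within the 47 members, the log2 ratio and the span were nearly unrelated (Spearman's rho 0.04), and over all listed genes rho was 0.16. The log2 ratio and the input CPM gave a rho of 0.20 over the members and 0.25 over all listed genes. These correlations are across genes of 1 pair of libraries, which are not replicates, and the input enters both measures. By input level, the 15 members under 5 CPM had a median log2 ratio of 1.18 (all listed genes of that range 1.14), the 16 members from 5 to under 20 CPM 1.82 (1.49), and the 16 members at 20 CPM or more 1.60 (1.56). No member lay on the X or Y chromosome, and the only gene of these families on the X chromosome in the reference, *Fancb*, was not listed.

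Some of these values may hold reads shared with other genes. Reads were not whole numbers in 11 of the 47 members, among them *Brca2*, *Slx4*, *Mdc1*, *Atr* and *Sycp1*, and in 1284 of the 4788 listed genes. The spans of 24 members overlap another gene of the reference, and those of 11 overlap a protein-coding one. Of these partners, *Mkks*, *Fancd2* and *Fancd2os* were listed. *Mkks*, which shares 189 bases with *Slx4ip*, had a ratio of 1.81, close to the 1.77 of *Slx4ip*. The part of shared reads in these ratios was not tested.

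Other genes of the same pathways, 84 in number and outside the symbol patterns, were listed in 28 cases (33.3%, beside 21.3% of the protein-coding reference), and 21 of these had a log2 ratio above 1. That is 75% of them, near the 70.1% of all listed genes. These 84 genes too were chosen with earlier results of these data known, so their listed share is a description only. Their median log2 ratio was 1.48. The highest belonged to *Rev3l*, the catalytic subunit gene of a DNA polymerase that copies past damage, which had 17.2 CPM in input RNA and 333 CPM after RIP, a ratio of 19.3 (17.7 to 21.1). *Rbbp8*, whose protein starts the resection of breaks, had 3.37 CPM and 48.6 CPM, a ratio of 14.4 (11.8 to 17.7). *Polq*, the polymerase gene of an error-prone end joining pathway, had 6.97 CPM and 59.9 CPM, a ratio of 8.60 (7.47 to 9.93). The interval of *Rev3l* lay above that of *Sycp2*, the highest member, and the interval of *Rbbp8* overlapped it. At the other end by log2 ratio with the pseudocount, among genes with at least 100 reads, *Eme2*, a nuclease partner gene, had a ratio of 1.68 (1.41 to 2.02), and *Six6os1*, which encodes a central element protein of the synaptonemal complex, had 1.71 (1.14 to 2.61) from 37 input reads. Without the pseudocount, *Ybx2*, which encodes a germ cell RNA-binding protein, was lower than both at 1.62 (1.59 to 1.65). *Prdm9*, the methyltransferase gene that places meiotic breaks, had 0.58 CPM and 4.27 CPM, and its 18 input reads allowed a ratio from 4.48 to 12.7 around 7.32. *Spo11* and *Dmc1*, the enzymes that cut the DNA and carry out meiotic strand exchange, were not among the listed genes, and neither was *Ddx4*, the helicase gene of germ granules.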

How the data were processed

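RIP-seq of FMRP was measured in 1 input library and 1 FMRP RIP library of adult wild type mouse testis, grouped by their treatment labels. The submitters' processing notes name STAR and the build GRCm38 (mm10); the counting tool is not given in the sources used here. The authors deposited CPM values for 4788 genes they had called higher with edgeR, at a fold of at least 1.5 and a false discovery rate below 1%. Their columns of fold changes and p-values were not used, and their column of calls served only to count that all 4788 were marked as higher. The table lacks genes that were not called, so each count is over called genes. Each of its rows was counted as a gene, although some symbols occur more than once. From the steps of the deposited CPM, library totals were recovered. Of the values above 0, 78.4% (input) and 78.8% (FMRP RIP) were whole reads within 0.002 read, so no count model of the groups was fitted. The exact intervals of ratios and of quotients rest on reads rounded to whole numbers. One read was worth 0.0324 CPM and 0.0274 CPM, and the floor of 3 reads lay at 0.0972 CPM and 0.0822 CPM.

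The log2 ratio used a pseudocount of 1 CPM. Role groups were set by hand over all 109 reference symbols that fit the patterns. All 47 members matched the RefSeq table of GRCm38.p6 by symbol, and 71 of the listed genes did not match. The 47 members, the roles, the other lists and the pairs were chosen with earlier results of these data known. Genes named were the 3 highest and 2 lowest of each role with at least 100 reads over both libraries and a fixed list of 64 genes, 33 of them listed; the remaining members, *Prdm9*, *Ybx2*, *Mkks* and the unlisted genes were named after their values were seen. The values of 1 member are not reported here, though it stays in every count. Alternatives were no pseudocount or one of 0.125 or 5 CPM, at least 1 CPM in each library, a rescaling to unlisted reads, members with whole reads only, unique or directly matched symbols, and, added later, members without overlapping genes or without *Rad54l2* and *Fancd2os*. The functions were tested on simulated data. Python 3.11.15 was used, with scipy 1.17.1 for intervals, pandas 2.3.3 and numpy 2.4.6 for tables and matplotlib 3.10.9 for plots.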

Additional observations from a re-analysis of the deposited data

How the results depend on the processing

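The median log2 ratio of the members, 1.42, was 1.13 with a pseudocount of 5 CPM and 2.32 when libraries were scaled to unlisted reads, which multiplies each FMRP RIP value by 1.92 and moved the median of all listed genes to 2.24. It moved by less than the median counting error of a member under the other alternatives. The count of members with a log2 ratio above 1, 38, ranged from 27 to 47 with the other pseudocounts, the minimum and that scaling. The 27 came with the pseudocount of 5 CPM, where 51.7% of all listed genes passed. The 47 came with that scaling, where 4786 of the 4788 listed genes passed. The count was 19 of 23 when the 24 members that overlap another reference gene were left out, beside 70.1% of all listed genes. That choice was made after seeing the data. Of 10 roles, 8 had a median above 1, and between 6 and 10 under the alternatives. The median of all listed genes was also above 1, at 1.35, and between 1.04 and 2.24 under the alternatives. Among 233 log2 ratios of single members recomputed this way, 78 shifted beyond the one-sided width of their counting interval, 46 of them with that scaling and 27 with the pseudocount of 5 CPM. As the table holds called genes only, no direction could change, and these fits say nothing of its stability. The planned comparison with protein length was not run, since no protein sequences were used here, and gene span took its place. No paired analysis was possible because input and FMRP RIP are single libraries. Depth limits *Parp14*, *Parp3* and *Xrcc3* most, with 25, 28 and 52 input reads.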

Other observations

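Marker genes of testis cells, some of the spermatocyte ones being genes of these pathways, were also looked up. The listed share was 21.4% for spermatid and 25% for endothelial markers, beside 21.3% of the protein-coding reference. It was 16.7% for spermatocyte and 10% for spermatogonial markers, and lists this short place such shares only loosely. Of 14 spermatid markers, *Odf2*, a gene of the outer dense fibers of the flagellum, had 924 CPM in input RNA and 6271 CPM after RIP, a ratio of 6.78 (95% counting interval 6.70 to 6.87). *Catsper1*, a sperm calcium channel gene, had a ratio of 6.19 (5.82 to 6.60), and *Akap4*, a gene of the fibrous sheath, one of 4.14 (4.09 to 4.20). Of 12 spermatocyte markers, only *Sycp1* and *Sycp2* were listed. *Gfra1* was the only one of 10 spermatogonial markers, with 1.07 CPM and 4.33 CPM, and *Vwf* the only one of 4 endothelial markers, with 8.46 CPM and 18.5 CPM. None of the 9 Sertoli cell, 7 Leydig cell, 4 peritubular myoid cell and 4 macrophage markers was among the listed genes.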
